A study of Homo sapiens with 6 samples.

Results

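The genes described here are 42 genes that mark epithelial cells or the stomach lining: tight junction, desmosome and keratin genes, regulators of the epithelial state, mucins, secreted stomach proteins and transcription factors of gut lineage. They were taken by name from the deposited expression table, where all 42 of them were found among 58233 gene rows, whatever their level. The cells were HGC-27, an established line that the labels describe as an undifferentiated gastric cancer, grown in RPMI medium with serum. One group was transfected for 72 h with a mixture of siRNAs against STRN3 and the other with a negative control siRNA, with 3 libraries each, called siSTRN3 and siNC after their labels. STRN3 encodes striatin-3, a subunit of the STRIPAK phosphatase complex, which acts on the Hippo pathway. No knockout, transgene or drug is named in the labels, and nothing there says whether the 3 libraries of a group came from separate cultures, so that every p-value measures only the spread between these libraries.

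In an epithelium, tight junctions built from claudins, occludin and the scaffold ZO-1 seal the space between cells. Desmosomes, built from the cadherins DSG and DSC, the plakins and the plakophilins, anchor a network of keratin filaments. In the stomach this sheet makes gel-forming mucins, trefoil factors, gastrokines and pepsinogens, under transcription factors of the GATA, SOX, FOXA and HNF families, while CDX factors mark intestinal cells. Carcinoma cells that lose this programme can hold vimentin filaments, with or without keratins.

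Values are in TPM, each transcript's share of its library corrected for gene length, so levels of different genes can be set side by side. Because read numbers are not kept in TPM, depth is unknown, and a value of 0 says only that the gene is listed at 0. Between 13264 and 13327 rows reached 1 TPM in the siNC libraries and between 12295 and 12324 in the siSTRN3 libraries. The named rows of nuclear ribosomal RNA held 8.81% ± 0.274 of the TPM scale in siNC and 22.2% ± 0.308 in siSTRN3 (SD, n = 3), and the median of the 13004 rows tested was 10.19 to 10.4 TPM in siNC and 6.46 to 6.62 TPM in siSTRN3. The median log2 fold change of all tested rows was -0.57 as deposited, and the part of the ribosomal RNA rows in this shift was not tested. Levels below are as deposited, and fold changes are given after each library was rescaled to the same median, on the scale of log2(TPM + 1), which understates changes of low genes. STRN3, the target, was not lower in the group named for it, with 3.51, 5.30 and 3.85 TPM in siNC and 4.76, 5.0 and 5.56 TPM in siSTRN3 (rescaled log2 fold change 0.77 ± 0.13 SE, adjusted p = 0.00894 in limma). As deposited the STRN3 groups overlapped, and the log2 fold change was 0.24 (limma, adjusted p = 0.142). The target gene thus went against the group's label after rescaling and did not bear it out as deposited. Exchanged labels and an absent knockdown cannot be told apart here, and an exchange would turn every direction below, where siSTRN3 always stands for the libraries labelled siSTRN3.

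Most of the epithelial and gastric genes were silent or close to it. In the siNC libraries 10 of 42 reached 1 TPM in all 3 libraries (23.8%), against 10986 of 19382 protein-coding rows (56.7%). In the siSTRN3 libraries 8 of the 42 did (19.0%), against 53.5% of protein-coding rows. Listed at 0 in all 6 libraries were 9 of the 42 (21.4%), not far from the share of protein-coding rows (3280 of 19382, 16.9%). Another 8 stayed under 0.1 TPM everywhere, 13 lay between these and 1 TPM, and KRT7 and KRT8 reached 1 TPM in 2 libraries each. The 10 genes kept at a measurable level were TJP1, DSG2, GATA4, MUC1, CDX2, DSC2, GATA6, CLDN7, DSP and FOXA1, in the order of their mean in siNC. Of these TJP1 stood apart at 106 ± 28.97 TPM (SD, n = 3), followed by DSG2 at 15.01 ± 0.236 TPM. GATA4 stood at 7.81 ± 0.317, MUC1 at 5.81 ± 0.581, CDX2 at 3.86 ± 0.669, DSC2 at 3.39 ± 0.0751 and GATA6 at 3.12 ± 0.178 TPM. CLDN7 at 2.25 ± 0.0265, DSP at 2.07 ± 0.146 and FOXA1 at 1.19 ± 0.197 TPM closed the order. Of neighbours in this order, CDX2 and DSC2 overlapped between siNC libraries, and the values of the other neighbouring pairs did not.

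**Figure D1:**
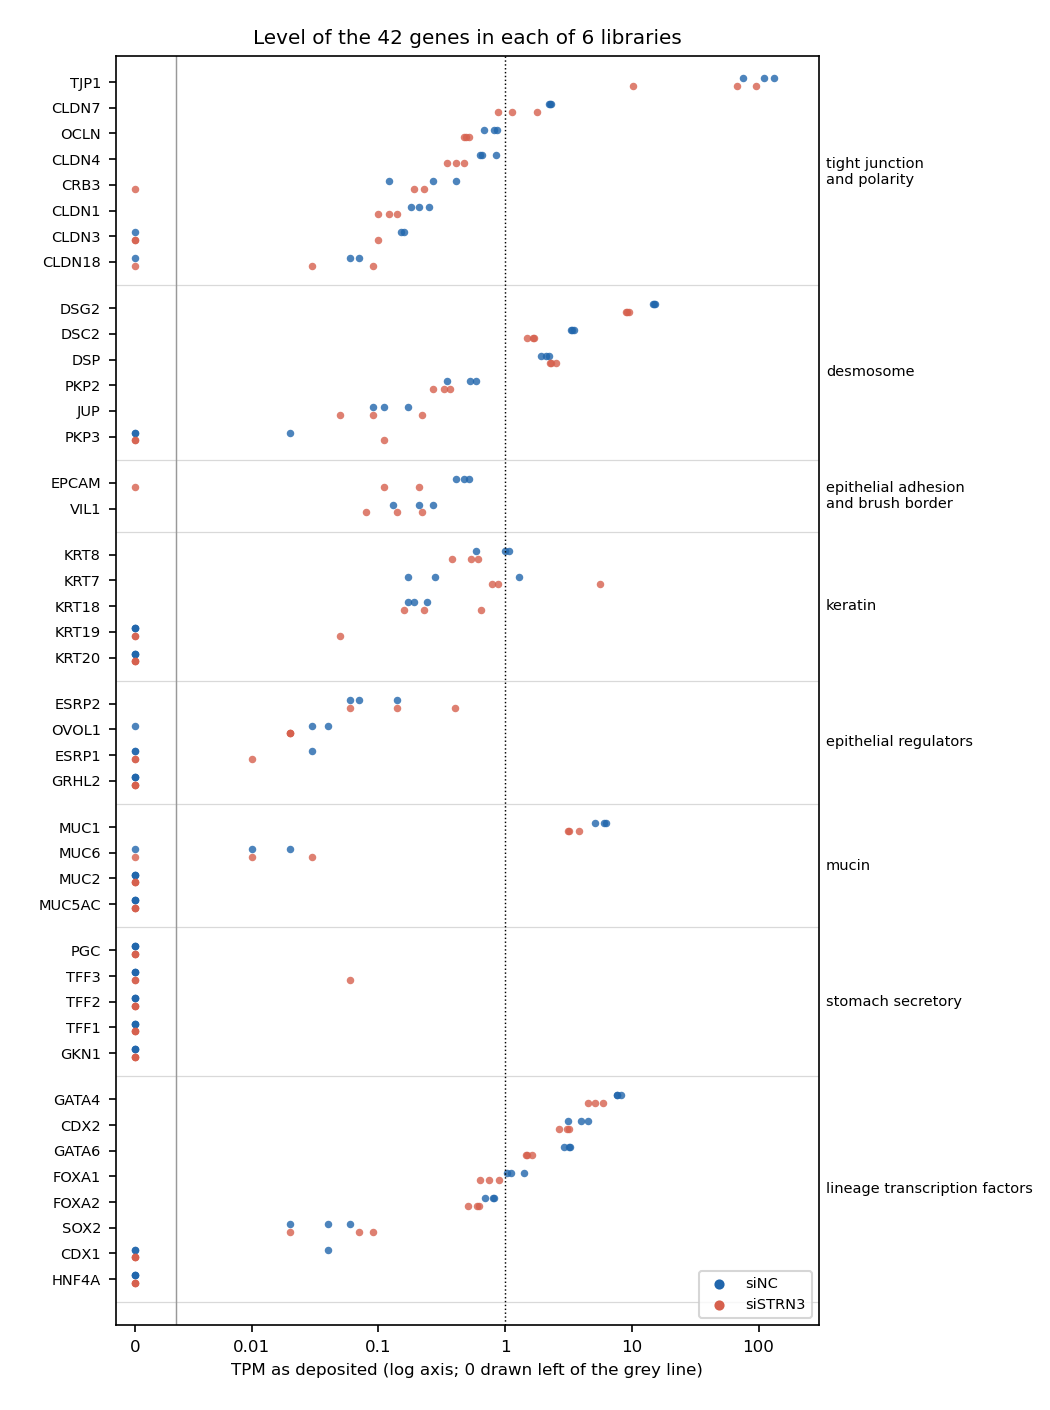
Level of each of the 42 genes, as deposited, in TPM on a log axis, with zeros drawn left of the grey line and genes grouped by role. Each point is 1 library (blue for siNC, red for siSTRN3), and the dotted line marks 1 TPM. Most genes lie left of 1 TPM in both groups, and the stomach secretory genes lie at or near 0.

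The label of the line was checked against defining markers of epithelium. EPCAM, the epithelial surface adhesion molecule, was at 0.52, 0.41 and 0.47 TPM in siNC and at 0, 0.21 and 0.11 TPM in siSTRN3. All its siSTRN3 values were lower, also after rescaling, but with the filter lowered to 0.1 TPM it did not pass (-0.28 ± 0.10 SE, limma adjusted p = 0.127). CDH1, the epithelial cadherin, which is not among the 42, was at 0.08 to 0.21 TPM over the 6 libraries. KRT19, a keratin of simple epithelia, was listed at 0 in 5 libraries and at 0.05 TPM in siSTRN3 replicate 3. VIM, the gene of vimentin, stood far above these, at 3011 ± 40.7 TPM in siNC and 1737 ± 18.1 TPM in siSTRN3 (SD, n = 3). The mesenchymal transcription factor genes TWIST1 (121 ± 2.53 TPM in siNC), SNAI2 (18.0 ± 0.698), SNAI1 (7.13 ± 0.311), ZEB2 (4.57 ± 0.268) and ZEB1 (3.86 ± 0.647) were all measured, whereas CDH2, the neural cadherin of mesenchymal cells, reached at most 0.11 TPM and TWIST2 was listed at 0 in all 6. KRT8 and KRT18, keratins of simple epithelia described below, ranged from 0.38 to 1.08 and from 0.16 to 0.65 TPM without their pseudogene rows. The epithelial markers EPCAM, CDH1, KRT19, KRT8 and KRT18 thus did not exceed 1.08 TPM in a line labelled as gastric cancer.

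All 7 fibroblast markers were measured in the same libraries, with a summed level of 716 to 723 TPM in siNC and 392 to 411 TPM in siSTRN3, led by COL3A1 (318 ± 3.46 TPM in siNC), the gene of type III collagen. Relative to the median gene, 4 of the 7 were lower and 1 higher (limma, adjusted p under 0.05), where 10.4% of all tested rows were lower and 11% higher. The 9 mesenchymal markers summed to 3142 to 3223 and 1801 to 1837 TPM, with 3 of 7 tested lower and none higher. The 5 endothelial markers summed to at most 0.12 TPM, with CDH5 at 0 in all 6 libraries. Of the leukocyte markers, PTPRC, the pan-leukocyte gene, stayed at or under 0.04 TPM. That list was not silent throughout: ITGAM reached 0.89 TPM and CD14 0.34 TPM, each in siNC replicate 3. In bulk RNA fewer cells of a type and less RNA per cell cannot be told apart, and the part of these mesenchymal and fibroblast levels in the results below was not tested.

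**Figure D2:**
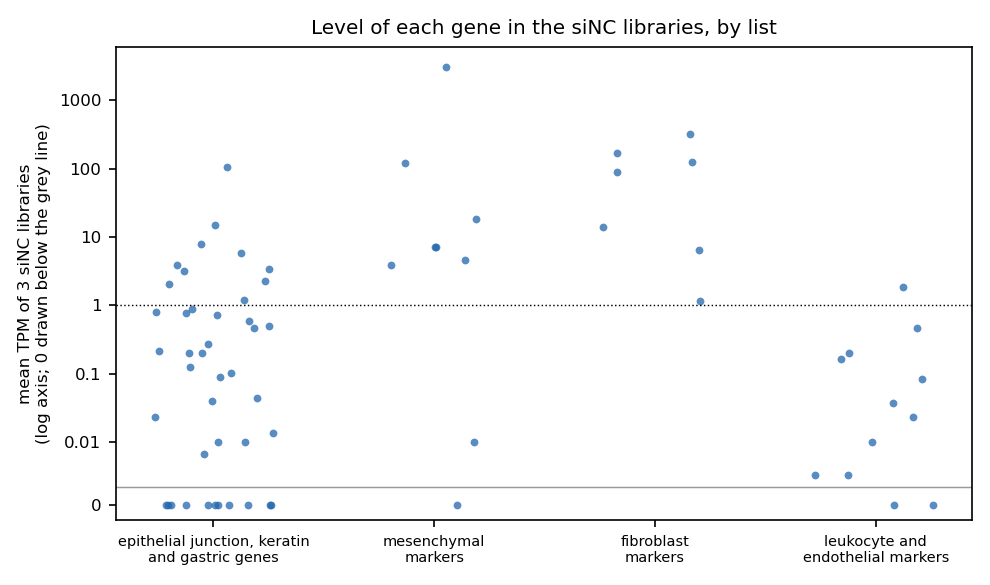
Mean level of each gene in the 3 siNC libraries, in TPM on a log axis with zeros below the grey line, by list; each point is 1 gene and the dotted line marks 1 TPM. The epithelial and gastric genes spread from 0 to 106 TPM with most under 1, the mesenchymal list holds VIM at 3011 TPM, and all fibroblast markers lie above 1 TPM.

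The tight junction genes were kept unevenly. TJP1 (chromosome 15, 29699367 to 29968865, GRCh38), which encodes the scaffold ZO-1, was at 111, 75.2 and 132 TPM in siNC and at 10.2, 67.9 and 95.2 TPM in siSTRN3. Its siSTRN3 replicate 1 lay more than 5-fold below both other libraries of its group, which was so for 37 of the 13004 rows in that library. The residual spread of TJP1 was larger than that of 99.5% of rows, and its log2 fold change of -0.68 had a 95% interval from -2.53 to 1.17 (limma, adjusted p = 0.573). Without siSTRN3 replicate 1 the value was 0.29, so the direction rests on that library. CLDN7 (chromosome 17, 7259903 to 7263983), a claudin of simple epithelia, was at 2.24, 2.28 and 2.23 TPM in siNC and at 1.78, 0.88 and 1.14 TPM in siSTRN3. The siSTRN3 libraries were all lower as deposited, but after rescaling the groups overlapped and the log2 fold change was -0.14 (95% interval -0.52 to 0.25, adjusted p = 0.588). Leaving out siSTRN3 replicate 1 gave -0.31 and leaving out siSTRN3 replicate 2 gave -0.0033. The exons of CLDN7 overlap those of ELP5 on the opposite strand, which stood at 19.7 to 21.2 TPM in siNC and 18.2 to 18.9 TPM in siSTRN3, and the strand setting of the counting is not given in the sources used here, so the CLDN7 level is uncertain.

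The other tight junction and polarity genes lay below 1 TPM. OCLN, the gene of occludin, was at 0.86, 0.81 and 0.68 TPM in siNC and at 0.47, 0.52 and 0.49 TPM in siSTRN3. CLDN4 was at 0.85, 0.66 and 0.63 TPM in siNC and at 0.47, 0.35 and 0.41 TPM in siSTRN3, while its neighbour CLDN3, 29.3 kb away on chromosome 7, reached at most 0.16 TPM and was at 0 in 3 libraries. In both OCLN and CLDN4 all siSTRN3 libraries were below all siNC libraries as deposited, and the groups overlapped after rescaling. CLDN1 ranged from 0.10 to 0.25 TPM. CRB3, the apical polarity gene of the Crumbs complex, ranged from 0 to 0.41 TPM and CLDN18, the claudin of gastric epithelium, from 0 to 0.09 TPM. Among all 24 claudin rows of the table, a group looked at after the values were seen, only CLDN12, CLDN15 and CLDN7 reached 1 TPM in every siNC library, and 6 were listed at 0 in all 6 libraries.

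The desmosome genes held both members that passed the test. DSP (chromosome 6, 7541575 to 7586717), the gene of desmoplakin, the plakin that ties desmosomes to intermediate filaments, was at 2.09, 2.21 and 1.92 TPM in siNC and at 2.53, 2.25 and 2.32 TPM in siSTRN3. All 3 siSTRN3 libraries were above all 3 siNC libraries, on the deposited scale by a narrow margin and after rescaling by a wide one (rescaled means of 1.65 and 2.97 TPM). Relative to the median, DSP rose 1.49-fold in TPM + 1 (0.58 ± 0.085 SE on the log2 scale, adjusted p = 0.00594 in limma), and as deposited its value was 0.13 (adjusted p = 0.198). DSC2 (chromosome 18, 31058840 to 31102522), the gene of desmocollin-2, a desmosomal cadherin, was at 3.47, 3.39 and 3.32 TPM in siNC and at 1.67, 1.49 and 1.70 TPM in siSTRN3. The groups did not overlap on either scale, and DSC2 fell after rescaling (-0.29 ± 0.081 SE on the log2 scale, limma adjusted p = 0.0454). This call sits at the threshold: it was lost when any one of the 6 libraries was left out (adjusted p = 0.0734 to 0.133).

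DSG2 (chromosome 18, 31498043 to 31549008), the gene of the partner cadherin desmoglein-2, lies 395.5 kb from DSC2 and was the highest of the 6 desmosome genes among the 42. It was at 15.2, 15.1 and 14.7 TPM in siNC and at 9.50, 9.15 and 8.99 TPM in siSTRN3. The deposited values were all lower in siSTRN3, but the rescaled groups overlapped, and the log2 fold change was -0.049 (95% interval -0.17 to 0.073, adjusted p = 0.533). PKP2, the gene of a plakophilin, was at 0.53, 0.59 and 0.35 TPM in siNC and at 0.37, 0.33 and 0.27 TPM in siSTRN3. JUP, the gene of plakoglobin, which links desmosomal cadherins to desmoplakin, ranged from 0.05 to 0.22 TPM, and PKP3 from 0 to 0.11 TPM. DSG2, DSC2 and desmoplakin were therefore measured in a line where plakoglobin did not exceed 0.22 TPM.

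Against the background, the 2 calls among the 10 tested genes are close to the share for the whole table: 21.3% of the 13004 tested rows passed (limma, adjusted p under 0.05), 11% higher (1424 rows) and 10.4% lower (1348 rows). Scaling by TPM of protein-coding rows moved this split to 1078 higher and 1985 lower. Of the 10, the groups did not overlap after rescaling in DSP, DSC2 and GATA6, against 42.4% of all rows. On the deposited scale 7 of the 10 were lower, among 80.8% of all rows. The median log2 fold change of the 10 was -0.075, that of all tested rows -0.0063. FOXA1 passed the filter on low values through the siNC libraries alone. The 32 genes under that filter were tested, where at all, only with a lower filter or none.

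**Figure D3:**
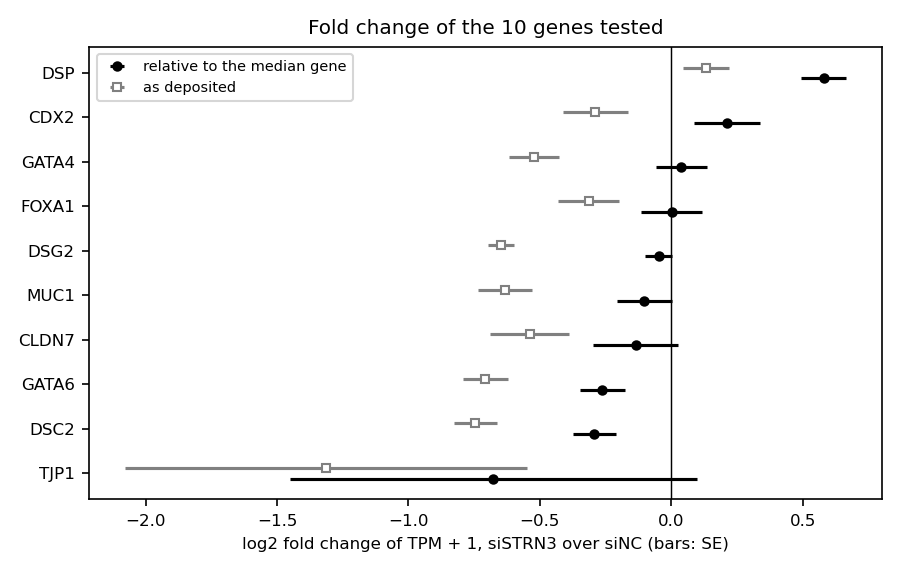
Log2 fold change of TPM + 1, siSTRN3 over siNC, of the 10 genes tested, relative to the median gene (black circles) and as deposited (open squares), with bars of 1 SE from limma. DSP lies right of 0 on both scales, DSC2 and GATA6 lie left of 0 on both, and CDX2, GATA4 and FOXA1 change side between the scales.

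The keratins of simple epithelia were nearly absent. KRT8, which pairs with KRT18 in the filaments of simple epithelia, was at 1.0, 0.59 and 1.08 TPM in siNC and at 0.61, 0.38 and 0.54 TPM in siSTRN3. KRT18 was at 0.19, 0.24 and 0.17 TPM in siNC and at 0.16, 0.65 and 0.23 TPM in siSTRN3. After rescaling all siSTRN3 values of KRT18 lay above those of siNC, without passing the test at the filter of 0.1 TPM (adjusted p = 0.297). The 2 genes lie side by side on chromosome 12 with exons that overlap on opposite strands. Both have many pseudogene copies, and the 50 rows named for KRT8 pseudogenes brought its sum to 3.50 to 4.09 TPM in siNC and 2.02 to 2.72 TPM in siSTRN3, while with its 67 such rows KRT18 came to 0.81 to 1.47 and 1.11 to 1.64 TPM. So even with their copies counted in, neither keratin exceeded 4.09 TPM. KRT20, a keratin of intestinal epithelium, was listed at 0 throughout.

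KRT7, a keratin of ductal and glandular epithelia, varied most. It was at 1.29, 0.28 and 0.17 TPM in siNC and at 5.65, 0.87 and 0.79 TPM in siSTRN3. Replicate 1 was the highest library of each group, and the groups overlapped after rescaling. Its siSTRN3 replicate 1, the library in which TJP1 was lowest, lay more than 5-fold above both others of its group, a gap that 21 tested rows of that library showed. With the filter lowered to 0.1 TPM, its change was 1.19 ± 0.56 SE in log2 units, which did not pass (limma, adjusted p = 0.216). Among 55 keratin rows of the table, looked at after the values were seen, KRT10 alone reached 1 TPM in every siNC library, at 12.4 ± 1.69 TPM, and 40 were listed at 0 in all 6.

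**Figure D4:**
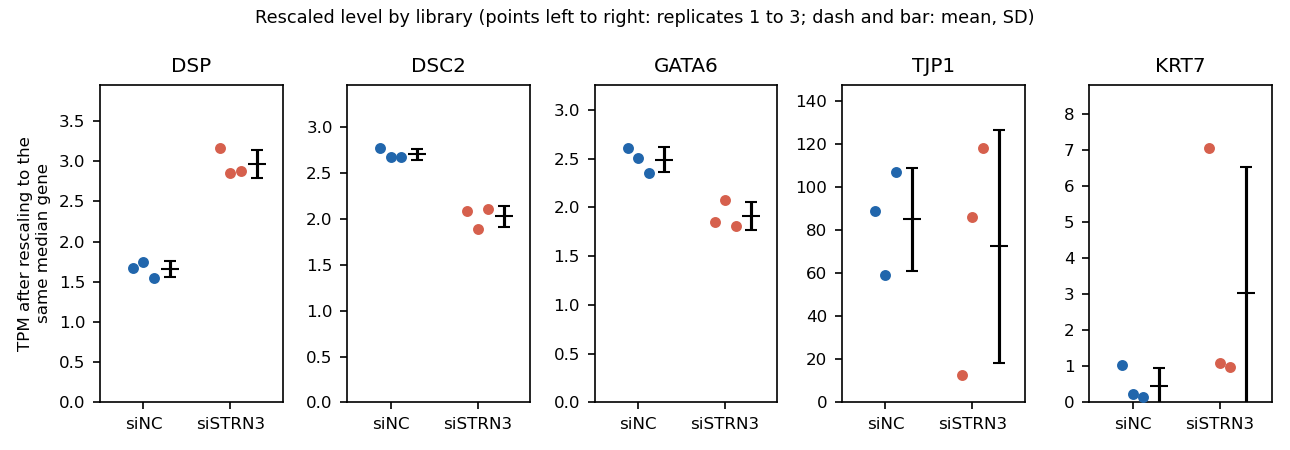
TPM after rescaling to the same median gene in each library of DSP, DSC2, GATA6, TJP1 and KRT7, each panel on its own linear axis from 0. Points are replicates 1 to 3 from left to right, and the dash and bar give the group mean and SD, cut off at 0 for KRT7. The groups do not overlap for DSP, DSC2 and GATA6, whereas in TJP1 and KRT7 siSTRN3 replicate 1 lies far from the other libraries of its group.

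The 4 regulators of the epithelial state among the 42 stayed at or under 0.40 TPM. ESRP1, which with ESRP2 directs epithelial splicing, was at or under 0.03 TPM, and ESRP2 ranged from 0.06 to 0.40 TPM, with its highest value again in siSTRN3 replicate 1. OVOL1, a repressor of mesenchymal genes, stayed at or under 0.04 TPM, and GRHL2, a grainyhead factor that drives junction genes such as CLDN4, was listed at 0 in all 6. VIL1, the gene of villin in the microvilli of the gut, ranged from 0.08 to 0.27 TPM.

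Of the mucins, the membrane-bound MUC1 was kept and the gel-forming ones were not. MUC1 (chromosome 1, 155185824 to 155192916) was at 5.16, 5.99 and 6.28 TPM in siNC and at 3.21, 3.83 and 3.14 TPM in siSTRN3. All siSTRN3 libraries were lower as deposited, the rescaled groups overlapped, and the log2 fold change was -0.10 (95% interval -0.35 to 0.15, adjusted p = 0.529). MUC2 and MUC5AC, the main gel-forming mucins of intestine and of stomach surface, were listed at 0 in all 6 libraries, and MUC6, the mucin of gastric glands, reached at most 0.03 TPM. These 3 genes are neighbours on chromosome 11, with 38.2 kb between MUC6 and MUC2 and 47.4 kb between MUC2 and MUC5AC.

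The secreted proteins of the stomach were silent. TFF1 and TFF2, trefoil factors of the gastric mucosa, GKN1, the gastrokine of surface cells, and PGC, the gene of pepsinogen C, were each listed at 0 in all 6 libraries. TFF3, the intestinal trefoil factor, was at 0.06 TPM in siSTRN3 replicate 1 and at 0 elsewhere. The trefoil genes too are neighbours, on chromosome 21, with 30.7 kb between TFF3 and TFF2 and 11.2 kb between TFF2 and TFF1. Of 17 further gastric genes, such as those of the proton pump and of pepsinogen A, 10 were at 0 in all 6 libraries and none reached 1 TPM in any, the highest in siNC being MUC13 at 0.503 ± 0.189 TPM, which was at 0.08 to 0.19 TPM in siSTRN3, and GHRL, the ghrelin gene, at 0.13 to 0.45 TPM over the 6 libraries.

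Of the 8 gut transcription factor genes, 4 were kept. GATA4, a factor of foregut and stomach, was the highest of them, at 7.57, 8.17 and 7.69 TPM in siNC and at 5.87, 5.11 and 4.48 TPM in siSTRN3. The rescaled groups overlapped, and the log2 fold change was 0.038 (95% interval -0.20 to 0.27, adjusted p = 0.809) against -0.52 as deposited. GATA6 (chromosome 18, 22169443 to 22202528), its relative in endoderm, was at 3.26, 3.18 and 2.92 TPM in siNC and at 1.48, 1.63 and 1.46 TPM in siSTRN3. Here the groups did not overlap on either scale, but the rescaled log2 fold change of -0.26 ± 0.087 SE did not pass the test (adjusted p = 0.0757), while it did when TPM was taken over protein-coding rows (-0.34, adjusted p = 0.0391). CDX2 (chromosome 13, 27962137 to 27971139), the master factor of intestinal epithelium, was at 3.15, 3.94 and 4.48 TPM in siNC and at 3.05, 3.18 and 2.64 TPM in siSTRN3. Its groups overlapped after rescaling, and the log2 fold change was 0.21 (95% interval -0.084 to 0.51, adjusted p = 0.264), against -0.29 as deposited.

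FOXA1 (chromosome 14, 37589984 to 37596059), a pioneer factor of endoderm, was at 1.04, 1.41 and 1.11 TPM in siNC and at 0.63, 0.75 and 0.89 TPM in siSTRN3. After rescaling its group means were both 0.95 TPM (95% interval of the log2 fold change -0.27 to 0.27, adjusted p = 0.997). FOXA2 was at 0.80, 0.69 and 0.81 TPM in siNC and at 0.62, 0.51 and 0.60 TPM in siSTRN3, and SOX2, a factor of gastric progenitors, ranged from 0.02 to 0.09 TPM. CDX1 was at 0.04 TPM in 1 library and at 0 in the others, and HNF4A, a nuclear receptor that drives gut and liver epithelial genes, was at 0 in all 6. Of 15 further intestinal and endoderm genes 9 were at 0 in all 6, and HNF4G, the relative of HNF4A, was the highest at 1.06 ± 0.0961 TPM in siNC, followed by SOX9 at 0.33 to 0.43 TPM. CDX2 was thus measured without CDH17, FABP1 or SI, known products of intestinal epithelium, which were all listed at 0.

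Among 89 further epithelial, gastric and intestinal genes, 18 passed the filter and 1 of them passed the test, against 21.3% of all tested rows. It was NECTIN2, the gene of an adherens junction adhesion molecule, which fell (21.1 ± 1.18 to 9.93 ± 0.930 TPM as deposited; log2 fold change -0.41 ± 0.085 SE, adjusted p = 0.0180). Without siNC replicate 1 or 3 or siSTRN3 replicate 1, 0 of the 18 passed. Without siSTRN3 replicate 2, 3 passed (NECTIN2, PARD3 and SPINT2), and without siSTRN3 replicate 3, 2 passed (NECTIN2 and PATJ). The other catenin and polarity genes with the smallest adjusted p were CTNNB1, the beta-catenin gene (-0.15, adjusted p = 0.0599), PARD3 (-0.23, 0.0638) and PATJ (-0.52, 0.105), none of which passed. The catenins of the adherens junction, which non-epithelial cells use as well, were among the 13 genes of the junction list past the filter: CTNNA1 stood at 86.4 ± 1.10 TPM, CTNNB1 at 48.5 to 51.4 TPM and CTNND1 at 36.3 ± 1.14 TPM in siNC. In the list of further epithelial regulators and surface proteins, none of 4 tested genes passed with all libraries, and the highest were SPINT2, at 11.5 ± 1.88 TPM in siNC and at 12.1, 2.01 and 11.3 TPM in siSTRN3, and KLF5 at 5.95 ± 0.473 TPM in siNC. Among 13 further keratins only KRT10 passed the filter (log2 fold change 0.24, adjusted p = 0.284), and KRT4 was the next highest at 0.883 ± 0.0971 TPM in siNC.

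Promoter windows are shown for 4 genes, chosen to include the highest and lowest numbers of matches to a motif among the members: CRB3, near silent, KRT8, under 1 TPM in 4 of 6 libraries, and CLDN7 and DSP, kept at a low level. Each window, from RefSeq on GRCh38.p14, runs from 250 bases before to 50 bases after an annotated start, 5′ to 3′ on the gene's strand, and is one of 35116 windows in the RefSeq table. Capitals mark every match to CACCTG or its reverse complement CAGGTG, the E-box letters that ZEB and SNAI repressors are known to bind in promoters of epithelial genes, searched at every position on both strands. CRB3 has chr19:6464021-6464320 (plus strand), CLDN7 chr17:7262429-7262728 (minus), DSP chr6:7541421-7541720 (plus) and KRT8 chr12:52926420-52926719 (minus).
CRB3: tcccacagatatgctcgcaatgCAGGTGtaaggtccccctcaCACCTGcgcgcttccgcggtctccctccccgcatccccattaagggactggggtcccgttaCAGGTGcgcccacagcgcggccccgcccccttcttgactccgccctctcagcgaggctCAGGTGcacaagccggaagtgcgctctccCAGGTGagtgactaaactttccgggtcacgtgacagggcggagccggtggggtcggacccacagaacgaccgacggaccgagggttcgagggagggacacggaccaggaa
CLDN7: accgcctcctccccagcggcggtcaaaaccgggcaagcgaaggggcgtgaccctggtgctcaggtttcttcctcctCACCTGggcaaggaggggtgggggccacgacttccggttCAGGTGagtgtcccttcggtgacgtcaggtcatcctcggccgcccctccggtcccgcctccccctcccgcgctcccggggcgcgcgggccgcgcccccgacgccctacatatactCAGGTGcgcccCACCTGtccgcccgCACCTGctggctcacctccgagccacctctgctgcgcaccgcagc
DSP: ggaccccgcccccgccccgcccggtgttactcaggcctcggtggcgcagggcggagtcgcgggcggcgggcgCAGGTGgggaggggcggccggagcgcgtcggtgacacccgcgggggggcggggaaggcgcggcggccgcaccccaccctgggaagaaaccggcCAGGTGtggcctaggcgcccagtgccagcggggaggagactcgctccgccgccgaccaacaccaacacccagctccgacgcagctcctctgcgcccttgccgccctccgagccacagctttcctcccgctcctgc
KRT8: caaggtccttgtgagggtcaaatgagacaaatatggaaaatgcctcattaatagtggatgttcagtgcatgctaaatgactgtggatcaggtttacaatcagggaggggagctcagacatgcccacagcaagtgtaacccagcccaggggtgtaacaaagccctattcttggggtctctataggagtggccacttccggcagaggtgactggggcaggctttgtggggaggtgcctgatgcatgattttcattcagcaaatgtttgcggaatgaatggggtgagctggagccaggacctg

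The CRB3 and CLDN7 windows hold 5 matches each, DSP holds 2 and KRT8 none. At least 1 match was found in 20.6% of all 35116 windows, and 5 or more in 33 of them (0.0940%). CRB3 and CLDN7 are the extremes of the members, the 2 windows with 5 matches among 33, and were chosen after the matches were counted. The table had 33 windows for 23 of the 42 genes, some of them overlapping, and 17 of these windows held a match (51.5%). By gene, 7 of the 9 tested genes with a window held a match in at least 1 window, and 8 of the 14 others. The share by gene was not taken over all genes, and the 20.6% is a share of windows, so these counts cannot be set against it. CLDN7 also has a second window, at an upstream start, without a match. The CRB3 window lies inside the GENCODE span of its gene (6463777 to 6467221, plus strand), and the CLDN7 windows inside theirs (7259903 to 7263983, minus strand). The only KRT8 window also lies inside the span of its gene (52897187 to 52949954, minus strand). Starts at the 5′ ends of these spans were not searched. These matches are letters in a window and no measure of binding.

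The authors' deposited table gives its own comparison of the groups. Of the 42 genes in the authors' deposited table, 4 had an adjusted p under 0.05, namely DSP (2.17e-17), DSC2 (8.42e-04), GATA6 (0.0406) and KRT7 (0.0468). None of the 42 is among the 57 rows that the authors' deposited table marks as significant.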

How the data were processed

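RNA sequencing libraries of HGC-27 cells were grouped by their titles, 3 per treatment. The authors deposited TPM values per gene row and library, per the file headers; per the submitters' processing notes, the tools were HISAT2, Cufflinks and RSEM (roles and versions not given) and the build GRCh38.p10. That file also holds the authors' deposited p-values, for which its name gives DESeq2; they are quoted only as such. TPM keeps no depth, so no counting interval is given; 2 rows without a gene were left out.

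The 13004 rows at or above 1 TPM in 3 or more libraries were rescaled to the same median and tested with limma-trend on log2(TPM + 1) without a block, adjusted by Benjamini-Hochberg over all of them at 0.05 (limma 3.58.1, R 4.3.3; Python 3.11.15, pandas 2.3.3, numpy 2.4.6, matplotlib 3.10.9). Simulated data with known changes were used to test the fit. The members, lists and tests were chosen with earlier results of these data known. Every member was accounted for, those past the filter by library; from each further list up to 4 genes with the smallest adjusted p were named, or the 2 highest where none passed, and from marker lists the most abundant gene and those at 0, except 1 marker gene that is not reported here. Other genes named, and the gene families described, were chosen after their values were seen. Coordinates, exon overlaps and types come from GENCODE release 29 (GRCh38). A copy search (blastn, 95% identity over 50% of the longest transcript) found none for members that reached 0.5 TPM in any library. It also found none for KRT8 and KRT18, which have named pseudogene rows, so it cannot exclude copies of the other members. Alternatives were other scalings, pseudocounts and filters, each library left out, and a replicate block.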

Additional observations from a re-analysis of the deposited data

How the results depend on the processing

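Of 130 recomputed fold changes of the 10 tested genes, 103 kept their direction and side of the threshold, 11 lost a call and 5 gained one in the same direction, and 11 changed direction, 2 of which passed the test (GATA4 and FOXA1 as deposited). With values as deposited, 7 of the 10 genes were called instead of 2, 10643 of all 13004 rows instead of 2772, and 13 of the 18 further epithelial genes instead of 1, and CDX2 (-0.29), GATA4 (-0.52) and FOXA1 (-0.31) lay below 0. With protein-coding TPM, 3 further epithelial genes were called, and GATA4 (-0.0062) and FOXA1 (-0.030) lay just below 0. DSP was the only member called, 1 of 10 with scaling to the 75th percentile and without any one library, 1 of 24 with the filter of 0.1 TPM and 1 of 33 with no filter beyond rows at 0. Leaving out 1 library gave 1485 to 2128 of all rows, 0 to 3 further epithelial genes, log2 fold changes of -1.27 to 0.29 for TJP1, -0.045 to 0.13 for GATA4 and -0.057 to 0.063 for FOXA1. The replicate block gave 1 member (DSP, limma adjusted p = 0.0313), 1745 rows and 0 further epithelial genes. Deviations of same-numbered libraries from their group means had correlations of 0.057, -0.021 and -0.080. These gave no sign of pairing but cannot exclude that the numbers pair the libraries. At 0.5 TPM 14 and at 2 TPM 8 of the 42 genes counted as present in siNC, and summing pseudogene rows moved KRT18 from 0.28 to 0.51 and KRT8 from -0.059 to -0.057. The causes of these changes were not tested.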
